A study of Mus musculus with 3 samples.

Results

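Srcin1 and 8 genes that act with or on SRC kinase were followed across 3 arrays of a mouse kidney cell line treated with vitamin D metabolites. The 9 genes were Srcin1, Src, Yes1, Fyn, Lyn, Csk, Pag1, Bcar1 and Ptk2, and they were taken by gene symbol with every non-control probe that carries it, which gave 9 of 37008 genes and 18 of the 56605 probes on the array. Srcin1 was picked because its signal differed between these same arrays, so its differences are given as a description and with no test.

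The cells were a CRISPR-Cas9 knockout of Cyp27b1 in mpkDCT, a line from the mouse distal convoluted tubule. This gene encodes the enzyme that adds the 1α-hydroxyl group to 25(OH)D3 (calcidiol) and so makes 1,25(OH)2D3 (calcitriol), the hormone that binds the vitamin D receptor with high affinity. One culture received 1,25(OH)2D3 at 1e-07 M for 24 h, another 25(OH)D3 at 1e-07 M for 24 h, and the third vehicle. All 3 cultures carried the knockout and were kept in medium free of phenol red, with 2% serum stripped on charcoal, from 24 h before treatment, and no cells with an intact gene were analysed here. Sample names carry a tag, siCT, that is not explained in the sources used here. Whether the knockout line was 1 clone is not given there either. Each group had 1 array, so there is no spread between replicates, and no p-value is given for any difference.

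SRC-family kinases are membrane-bound tyrosine kinases that pass signals from integrins and growth factor receptors to the cytoskeleton. CSK phosphorylates their C-terminal tyrosine and so holds them in a closed, inactive form, and PAG1 is a membrane scaffold that brings CSK to them. SRCIN1, also called p140Cap or SNIP, is an adaptor best known in brain and breast epithelium that binds SRC, CSK and BCAR1 and lowers SRC activity. At focal adhesions the kinase FAK, encoded by Ptk2, pairs with SRC, and together they phosphorylate BCAR1 (p130Cas), a docking protein.

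The array reads each gene through probes of 60 bases. The probes of 3 genes are shown because probes of the same gene behaved differently, and the Srcin1 probes come first. All positions are those the scanner files give on mm9, with the strand of the transcript. The junction probes of Srcin1 and Bcar1 cover more of the genome than their own length and are shown whole. Of the other probes the first 30 bases are shown. The files do not say which exon or untranslated region a probe lies in.
Srcin1, junction probe A_52_P25420, chr11:97384514-97384787, minus strand: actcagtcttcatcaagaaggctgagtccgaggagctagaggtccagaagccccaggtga
Srcin1, downstream probe A_55_P2081123, chr11:97370654-97370713, minus strand: tggtttttctagccgagtgttggggcttta
Bcar1, junction probe A_55_P2739607, chr8:114239259-114239533, minus strand: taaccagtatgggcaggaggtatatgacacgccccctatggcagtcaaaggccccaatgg
Bcar1, downstream probe A_55_P2056639, chr8:114234418-114234477, minus strand: cacacctctgcaccaagaaaaaccctaaag
Lyn, RefSeq transcript probe A_55_P2723944, chr4:3718130-3718189, plus strand: aaactgctgtgtctgcccctttcacttatg
Lyn, Ensembl transcript probe A_65_P04064, chr4:3740184-3740243, plus strand: ccattaaccatggggaaggttctgtccaaa

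The downstream Srcin1 probe gave a processed signal of 621 ± 62.1 with 1,25(OH)2D3 and 331 ± 33.3 with 25(OH)D3, against 15.4 ± 3.15 with vehicle, where the error is the scanner software's estimate for the spot. It was the highest with 1,25(OH)2D3, lower with 25(OH)D3 and close to background with vehicle, where the lowest signal called well above background on that array was 13.4. The probe was well above background on all 3 arrays. Each array's log2 signals were set relative to its 75th percentile over all non-control spots, and differences are on that log2 scale with the combined scanner error of the 2 spots, which leaves out any variation between cultures, labellings and arrays.

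On that scale Srcin1 was 5.30 ± 0.33 higher with 1,25(OH)2D3 than with vehicle, a 39.4-fold difference, and ranked 2 from the top among 16944 genes measured on both arrays. With 25(OH)D3 it was 4.32 ± 0.33 higher than with vehicle, a 19.9-fold difference, and again ranked 2 of 16938 genes. These 2 differences share the vehicle array, and its weak signal enters both. Their size depends on how that weak signal is treated: with normexp background correction and quantile normalisation they were 3.27 and 2.35, and with an offset of 32 added before the logarithm 3.78 and 2.87. The brightest probe stood for each gene, and a gene counted as measured where both arrays had that probe well above background. Genes not well above background with vehicle are thus left out of both ranks. Cyp24a1 is one of them, at least 398-fold higher with 1,25(OH)2D3 and at least 20-fold higher with 25(OH)D3. In a bulk culture, more cells of a kind and more RNA per cell cannot be told apart.

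The 2 compounds differ by 1 hydroxyl group, which 1,25(OH)2D3 carries and 25(OH)D3 lacks, and this single pair was compared at the same dose and time. Srcin1 was 0.98 ± 0.20 higher with 1,25(OH)2D3 than with 25(OH)D3, which is 1.98-fold and just under the 2-fold used here to count a gene as different. With arrays centred on their median instead it was 1.17, past 2-fold, and as the mean over both Srcin1 probes, whether or not above background, it was 0.05. It ranked 79 from the top of 16788 genes in this comparison. The vehicle array does not enter this value. It is larger than the scanner error, but without replicate arrays it could not be set against the variation between cultures.

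The raw scan showed the same order. The mean pixel intensity of the downstream probe before background subtraction was 748 with 1,25(OH)2D3 and 419.5 with 25(OH)D3, against 90.1 with vehicle. The pixel medians, 733, 417 and 89 in the same order, lay close to the means. The local background was 65, 62 and 65, and the spot had 41, 41 and 47 pixels. The spot lay 69 positions from the nearest array edge. Spots within 5 rows and columns of it had median differences of 0.01 for 1,25(OH)2D3 minus vehicle, -0.06 for 25(OH)D3 minus vehicle and 0.06 for 1,25(OH)2D3 minus 25(OH)D3. Its surroundings thus carried no shift of a size near that of the probe.

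The Srcin1 junction probe, 13800 bases upstream in the genome and 3566 bases nearer the start of the same transcript, did not give this pattern. Its signal was 10.3 ± 3.07 with 1,25(OH)2D3 and 20.1 ± 4.11 with 25(OH)D3, against 3.59 ± 2.76 with vehicle. It was well above background on the 25(OH)D3 array alone. It can therefore give bounds but no fold change, and these leave out the scanner errors, which are large beside signals this weak. The bounds were 1.40-fold higher with 25(OH)D3 than with vehicle, and 1.38-fold lower with 1,25(OH)2D3 than with 25(OH)D3. Between 1,25(OH)2D3 and vehicle it gave no value. The probes share no run of bases longer than 5, and no other probe on the array maps between them. The Srcin1 differences above rest on the downstream probe alone, and which transcript it detected was not tested. Across the array, 52.9% of the 4158 probes that cover more genome than their length were well above background on all 3 arrays, against 45.1% of the remaining probes.

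**Figure D1:**
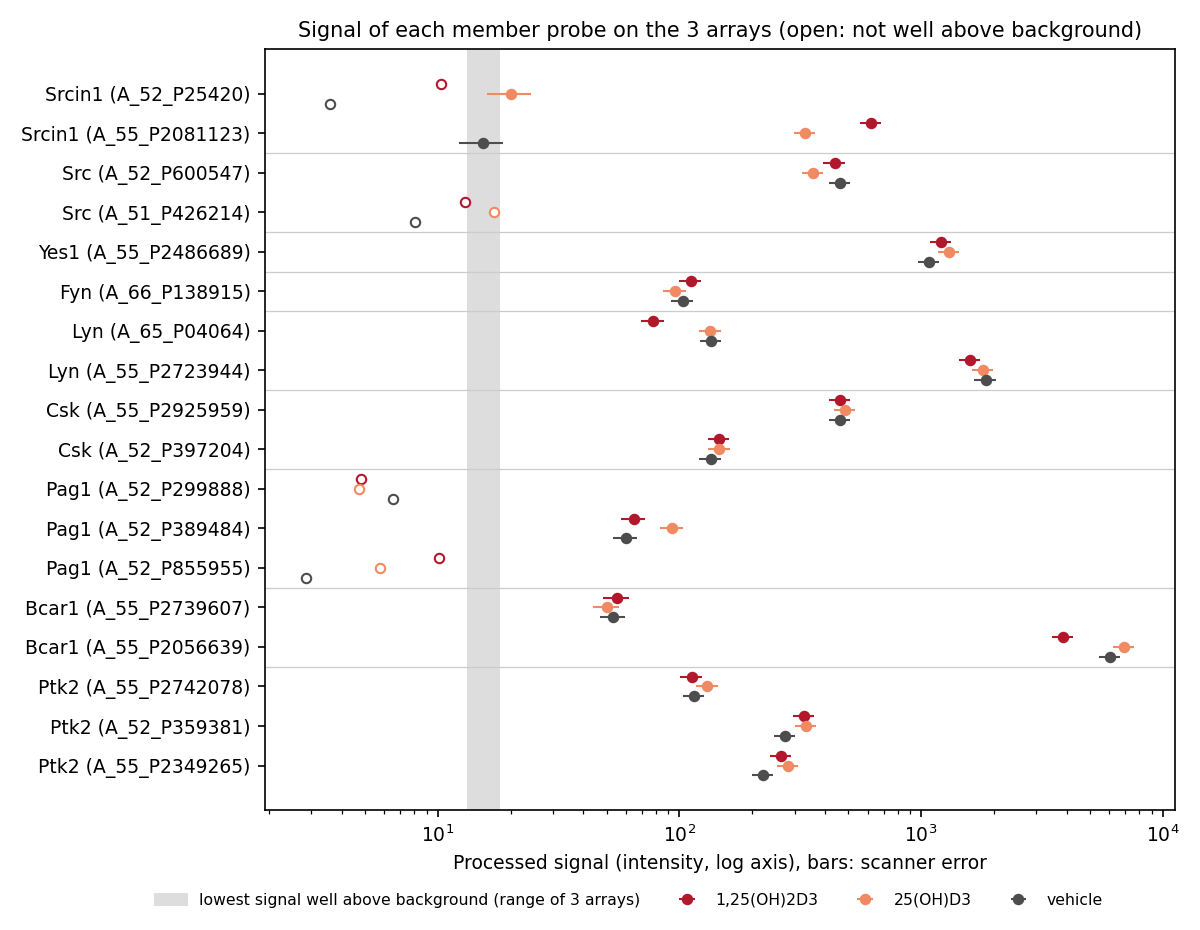
Processed signal (intensity, log axis) of each of the 18 probes of the 9 genes on the arrays of 1,25(OH)2D3, 25(OH)D3 and vehicle, with the scanner's error as bars, open points for spots not well above background, and a grey band for the range of the lowest signal well above background on the 3 arrays. The downstream Srcin1 probe stands at 621, 331 and 15.4, while the points of most other probes lie close together.

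The SRC-family kinases themselves differed little. Src, the kinase the family is named for, had 438 with 1,25(OH)2D3 and 359 with 25(OH)D3, against 464 with vehicle. The 25(OH)D3 array was the lowest of the 3: its difference from vehicle was -0.48 ± 0.20, that of 1,25(OH)2D3 from vehicle -0.11 ± 0.20, and 1,25(OH)2D3 minus 25(OH)D3 was 0.37 ± 0.20. Spots within 5 rows and columns of this probe had medians of -0.14, 0.11 and 0.24 in the same order. The part of the position in the Src values was not tested. A second Src probe, across a junction, was well above background on none of the arrays, at 13.0, 17.1 and 8.07 for 1,25(OH)2D3, 25(OH)D3 and vehicle. With both Src probes averaged, whether or not above background, 25(OH)D3 minus vehicle was 0.24 in place of -0.48.

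Yes1, a widely expressed and close relative of Src, had 1209.5 with 1,25(OH)2D3 and 1306 with 25(OH)D3, against 1083 with vehicle. Its differences from vehicle were 0.13 ± 0.20 and 0.16 ± 0.20, both smaller than the scanner error. Fyn, a family member of wide expression, had 112 with 1,25(OH)2D3 and 96.2 with 25(OH)D3, against 103 with vehicle. It was 0.08 ± 0.21 from vehicle with 1,25(OH)2D3 and -0.21 ± 0.22 with 25(OH)D3. The family members are similar in sequence, and cross-hybridisation between them was not tested.

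Lyn, a member best known in blood cells, gave different values by probe. The RefSeq transcript probe had 1597 with 1,25(OH)2D3 and 1805 with 25(OH)D3, against 1848 with vehicle. Its differences were -0.24 ± 0.20 for 1,25(OH)2D3 minus vehicle, -0.14 ± 0.20 for 25(OH)D3 minus vehicle and -0.10 ± 0.20 for 1,25(OH)2D3 minus 25(OH)D3. The Ensembl transcript probe starts 21994 bases beyond the end of the RefSeq probe, and it had 77.7 with 1,25(OH)2D3 and 134 with 25(OH)D3, against 135 with vehicle. There only the 1,25(OH)2D3 array was low, by -0.83 ± 0.21 from vehicle and -0.71 ± 0.22 from 25(OH)D3, while 25(OH)D3 minus vehicle was -0.12 ± 0.21. Neither probe reached 2-fold. The RefSeq probe lay 6 positions from the array edge and the Ensembl probe 29.

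Of the genes that restrain SRC, Csk was level. Its brighter probe had 463 with 1,25(OH)2D3 and 485 with 25(OH)D3, against 463.5 with vehicle. Its differences were -0.04 ± 0.20, -0.05 ± 0.20 and 0.01 ± 0.20 in the 3 comparisons, and the second probe lay between 0.01 and 0.08. Csk thus moved by less than the scanner error with either compound.

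Pag1, the CSK-recruiting scaffold, was read by 1 probe of 3. Both RefSeq transcript probes were well above background on none of the arrays, with signals from 2.86 to 10.1 over the 3 arrays. The probe to an Ensembl transcript, 134862 bases from the nearer of them, had 64.8 with 1,25(OH)2D3 and 93.3 with 25(OH)D3, against 60.1 with vehicle. The 25(OH)D3 array was the highest, by 0.52 ± 0.23 over vehicle, and 1,25(OH)2D3 was -0.45 ± 0.23 below it and 0.07 ± 0.23 from vehicle. Since the RefSeq transcript probes were not well above background, these values are those of the Ensembl transcript's probe.

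Bcar1, the docking protein that SRCIN1 binds, had the lowest difference from vehicle among the 9 genes with 1,25(OH)2D3, by its brightest probe. That downstream probe had 3873 with 1,25(OH)2D3 and 6887 with 25(OH)D3, against 6054 with vehicle. Its difference was -0.68 ± 0.20 for 1,25(OH)2D3 minus vehicle, 0.08 ± 0.20 for 25(OH)D3 minus vehicle and -0.75 ± 0.20 for 1,25(OH)2D3 minus 25(OH)D3. The spot lies in the outermost column of the array and its local background was marked as an outlier on the 25(OH)D3 array. The 19 measured spots around it had a median of -0.31 for 1,25(OH)2D3 minus vehicle, and 20 spots had -0.13 for 1,25(OH)2D3 minus 25(OH)D3. The part of this position in the Bcar1 value was not tested.

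The Bcar1 junction probe, 4781 bases away, had 54.9 with 1,25(OH)2D3 and 50.2 with 25(OH)D3, against 53.3 with vehicle. Its differences were 0.01 ± 0.25, -0.20 ± 0.25 and 0.21 ± 0.25 for 1,25(OH)2D3 minus vehicle, 25(OH)D3 minus vehicle and 1,25(OH)2D3 minus 25(OH)D3. The 2 Bcar1 probes thus disagree on the 1,25(OH)2D3 array, and this probe too lies near the edge, 2 rows in.

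Ptk2, which encodes FAK, had 3 probes, all well above background on every array. The brightest had 327 with 1,25(OH)2D3 and 333 with 25(OH)D3, against 274 with vehicle. Its differences from vehicle were 0.22 ± 0.21 and 0.17 ± 0.21, and the other probes gave 0.22 and -0.06 with 1,25(OH)2D3 and 0.24 and 0.07 with 25(OH)D3. The probes of Ptk2 differed from vehicle by little more than the scanner error at most. The brightest one carried the same local background mark as Bcar1, on the 25(OH)D3 array.

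**Figure D2:**
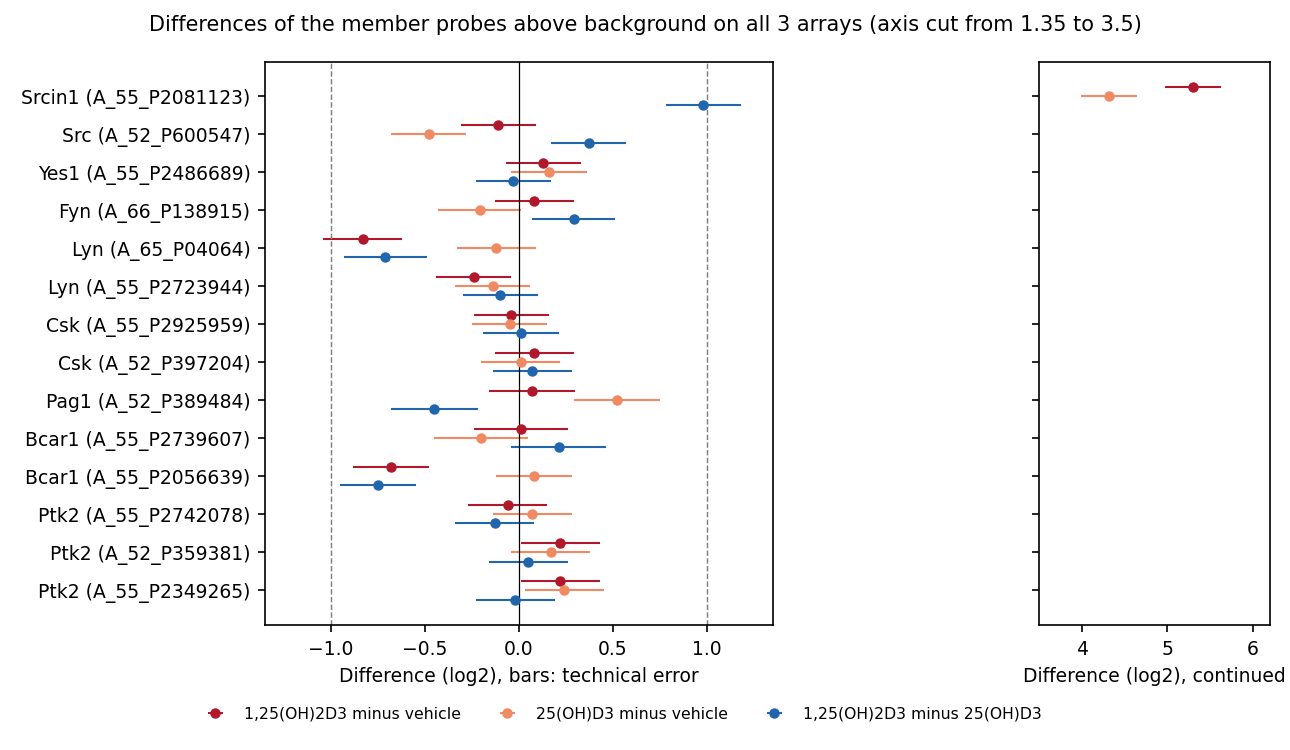
Log2 differences (scaled signal) of the 14 probes of the 9 genes that were well above background on all 3 arrays, with the combined scanner error as bars and dashed lines at 2-fold; the axis is broken to hold the Srcin1 values of 5.30 and 4.32. Each of the other probes stays within 2-fold between arrays, with the lowest values at the Ensembl Lyn probe and the edge probe of Bcar1.

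Counted by brightest probe, all 9 genes were measured in all 3 comparisons. At 2-fold, 1 of 9 was higher with 1,25(OH)2D3 than with vehicle and none was lower, where 0.986% of all measured genes were higher and 1.68% lower. With 25(OH)D3 against vehicle, 1 of 9 was higher and none lower, where 0.868% of genes were higher and 0.142% lower. The single gene was Srcin1 in both. Between the 2 compounds, 0 of 9 differed by 2-fold, where 0.459% of genes were higher and 1.45% lower. Srcin1 was chosen on these values, so nothing is read from its count.

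The 8 genes other than Srcin1 had medians of 0.02, 0.01 and -0.01 for 1,25(OH)2D3 minus vehicle, 25(OH)D3 minus vehicle and 1,25(OH)2D3 minus 25(OH)D3, beside -0.01, -0.01 and 0.00 over all measured genes. In each comparison 4 of the 8 lay above 0 and 4 below. Differences of more than 2 scanner errors were seen for Srcin1 and Bcar1 between 1,25(OH)2D3 and vehicle, where 15.8% of all genes passed that size. They were seen for Srcin1, Src and Pag1 between 25(OH)D3 and vehicle (7.13% of all genes), and for Srcin1 and Bcar1 between the 2 compounds (13.2%). The scanner error covers a spot's own measurement, so this size says nothing about repeat cultures.

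A wider set of SRC-related genes was read from 4 lists: the SRC-family kinases, CSK-type kinases and scaffolds, tyrosine phosphatases that act on SRC or its partners, and focal adhesion partners and substrates. Apart from the 9 genes they hold 43, of which 39 were measured in each comparison. Between 1,25(OH)2D3 and vehicle, 0 of 39 were 2-fold higher and 2 were 2-fold lower, beside 0.986% and 1.68% of all measured genes. Between 25(OH)D3 and vehicle 1 was higher and 0 lower, beside 0.868% and 0.142%. Between the 2 compounds 0 were higher and 2 lower, beside 0.459% and 1.45%. Their medians were -0.03, -0.01 and -0.07 in the same order, near those of all genes.

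The genes past 2-fold were Cav1, Ptk2b and Elmo1. Cav1 encodes caveolin-1, a membrane scaffold that SRC phosphorylates, and had 31.3 with 1,25(OH)2D3 and 103 with 25(OH)D3, against 95.1 with vehicle. It was low on the 1,25(OH)2D3 array alone, by -1.64 ± 0.25 from vehicle and -1.64 ± 0.25 from 25(OH)D3, and its other probe gave -1.04 and -1.13. Cav1 with 25(OH)D3 was 0.00 ± 0.22 from vehicle.

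Ptk2b encodes PYK2, the kinase most similar to FAK, and had 267.5 with 1,25(OH)2D3 and 489 with 25(OH)D3, against 579 with vehicle. Its differences were -1.15 ± 0.20 for 1,25(OH)2D3 minus vehicle, -0.35 ± 0.20 for 25(OH)D3 minus vehicle and -0.79 ± 0.20 for 1,25(OH)2D3 minus 25(OH)D3. Ptk2b was thus lower by this probe, where the related Ptk2 was not. The second Ptk2b probe was well above background on 1 array alone, so it gave no difference in any comparison. Bounds from that probe were not computed. Elmo1, a partner of the exchange factor DOCK1, had 22.9 with 1,25(OH)2D3 and 51.5 with 25(OH)D3, against 20.7 with vehicle. It was 1.20 ± 0.32 higher with 25(OH)D3 than with vehicle and -1.09 ± 0.32 lower with 1,25(OH)2D3 than with 25(OH)D3. Its signals were near background on the 1,25(OH)2D3 and vehicle arrays, and only 1 of its 5 probes was well above background on any array.

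The rest of the lists stayed within 2-fold. Among the SRC-family kinases, 7 of 9 were measured, and Fgr and Blk were not well above background. With 1,25(OH)2D3 against vehicle the highest was Yes1, at 0.13. With 25(OH)D3 against vehicle the family ran from -0.48 for Src to 0.23 for Lck, a T-cell member, and between the 2 compounds from -0.20 for Lck to 0.37 for Src.

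All 7 CSK-type kinases and scaffolds were measured. Besides Srcin1 and Cav1 this list holds Lime1, a transmembrane adaptor that binds CSK. Lime1 was the lowest of the list with 25(OH)D3, at -0.23 ± 0.20 from vehicle, and had 0.23 ± 0.20 with 1,25(OH)2D3.

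All 9 phosphatases were measured and none reached 2-fold. They ran from -0.34 for Ptpre, a receptor-type phosphatase that can activate SRC, to 0.32 for Ptpn22 with 1,25(OH)2D3 against vehicle. With 25(OH)D3 against vehicle they ran from -0.17 for Ptpn12, which dephosphorylates BCAR1, to 0.29 for Ptpn6. Between the 2 compounds the ends were Ptpre at -0.49 and Ptpn12 at 0.20. The other detected Ptpre probe gave -0.72 for 1,25(OH)2D3 minus vehicle and -0.87 between the compounds. The Ptpn22 spot lay in the outermost row or column.

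Of the 27 focal adhesion genes 25 were measured, all but Efs and Cdh1. Nedd9, a docking protein of the BCAR1 family, was their highest with 1,25(OH)2D3 against vehicle, at 0.48 ± 0.20, with signals of 644, 571 and 452 for 1,25(OH)2D3, 25(OH)D3 and vehicle. Tns3, the adhesion protein tensin-3, was the highest between the 2 compounds by its brightest probe, at 0.44 ± 0.20. That spot lay 2 positions from the array edge, and the other Tns3 probes averaged -0.02.

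**Figure D3:**
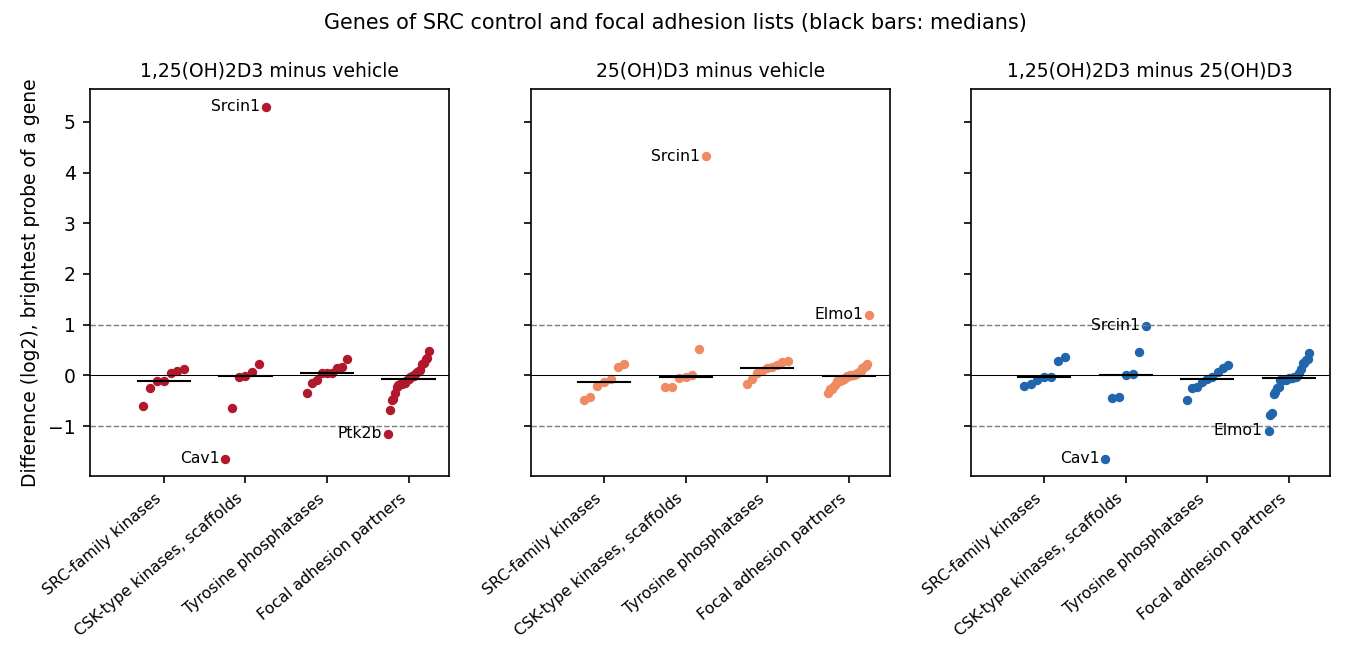
Log2 difference (scaled signal, brightest probe) of each measured gene in the 4 lists for 1,25(OH)2D3 minus vehicle, 25(OH)D3 minus vehicle and 1,25(OH)2D3 minus 25(OH)D3, with black bars at list medians and dashed lines at 2-fold. Genes at or near 2-fold are named: Srcin1 stands apart in the comparisons with vehicle, and Cav1 at -1.64 is the lowest point of the 2 panels that hold 1,25(OH)2D3 on top.

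Genes with a response most like that of Srcin1 were found by Euclidean distance between pairs of differences from vehicle, over the 16657 other genes whose brightest probe was well above background on all 3 arrays. The nearest was Krt17, a keratin, at a distance of 1.68, with 6.98 ± 0.30 for 1,25(OH)2D3 minus vehicle and 4.42 ± 0.30 for 25(OH)D3 minus vehicle. Krt17 had 2370 with 1,25(OH)2D3 and 424 with 25(OH)D3, against 18.4 with vehicle. Between the compounds Krt17 was 2.56 ± 0.20 apart, where Srcin1 was 0.98 ± 0.20 apart.

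Next came Slco1a6, an organic anion transporter, at 2.34, Spp1 (osteopontin) at 2.48, Cldn2, a tight junction protein, at 2.54 and Cebpd, a transcription factor, at 2.63. Cebpd had the smallest difference between the compounds of the 5, 0.47 ± 0.20, and was 3.20 ± 0.20 and 2.73 ± 0.20 above vehicle with 1,25(OH)2D3 and with 25(OH)D3. All 5 distances exceed the scanner errors of the differences. With the scaling used here, none of the genes compared thus had the Srcin1 pair of values to within that error. These distances depend on the Srcin1 vehicle signal, which is close to background. With normexp and quantile normalisation the Srcin1 pair was 3.27 and 2.35, and with an offset of 32 it was 3.78 and 2.87. Distances were not computed in those settings, so which genes lie nearest there is not known. The likeness rests on 3 arrays.

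The region around Srcin1 on chromosome 11 was read by the probes of 31 other named genes within 500 kb. Of these, 24, 25 and 24 were measured for 1,25(OH)2D3 minus vehicle, 25(OH)D3 minus vehicle and 1,25(OH)2D3 minus 25(OH)D3, with medians of 0.06, -0.01 and 0.05. None was 2-fold higher in any of the 3. Plxdc1, a plexin domain protein, was at the threshold on the lower side, with 139 with 1,25(OH)2D3 and 170 with 25(OH)D3, against 272 with vehicle, which is -1.0 ± 0.21 and -0.79 ± 0.21 from vehicle. Only 1 of the 3 Plxdc1 probes was well above background on any array. Sp6 was not well above background with 1,25(OH)2D3, at 14.0 against 28.5 with vehicle, a bound of 2.08-fold lower near background. The nearest measured gene, Arhgap23, whose probe lies 6999 bases from the downstream Srcin1 probe, was 0.15 and 0.24 from vehicle with 1,25(OH)2D3 and with 25(OH)D3.

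**Figure D4:**
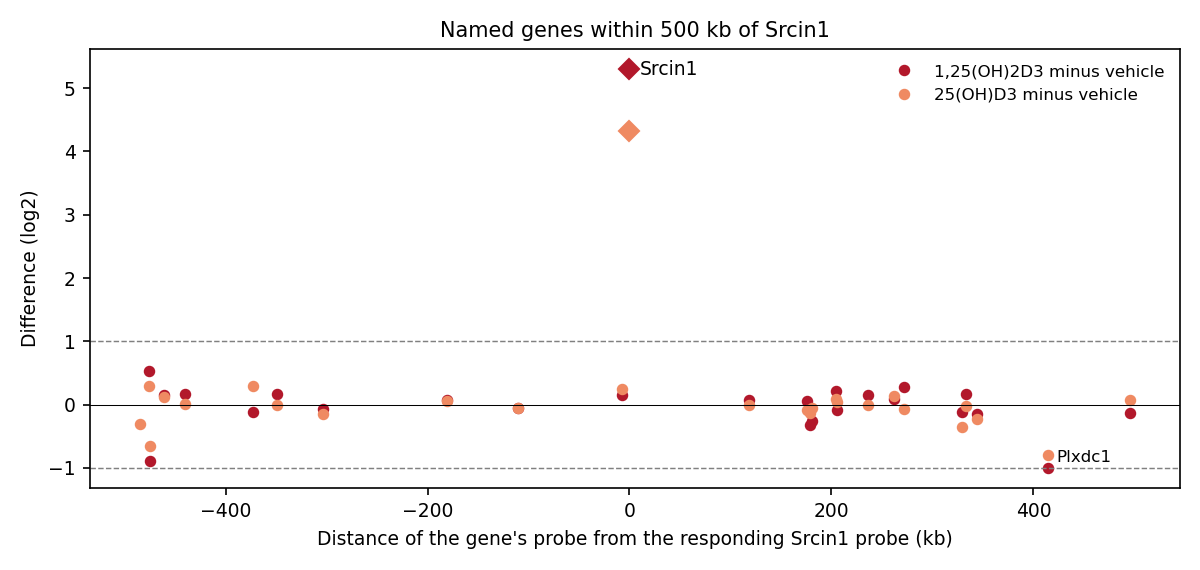
Log2 difference from vehicle (scaled signal, brightest probe) with 1,25(OH)2D3 and with 25(OH)D3 for named genes within 500 kb of Srcin1, plotted by the distance of the probe from the downstream Srcin1 probe in kb, with dashed lines at 2-fold. Srcin1 stands at 5.30 and 4.32, and the neighbours well above background on both arrays compared lie between -1.0 and 0.53.

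As checks of the treatment, Cyp24a1, the vitamin D 24-hydroxylase and a standard target of the receptor, had 5443 with 1,25(OH)2D3 and 288.5 with 25(OH)D3, against 2.68 with vehicle. It was not well above background with vehicle, which makes it at least 398-fold and at least 20.0-fold higher with 1,25(OH)2D3 and with 25(OH)D3. Cyp24a1 differed by 4.32 ± 0.20 between the compounds, where Srcin1 differed by 0.98 ± 0.20. Vdr, the receptor gene, was -0.20 ± 0.20 and -0.29 ± 0.20 from vehicle. The Cyp27b1 probe was well above background on none of the arrays, at 7.05, 3.82 and 2.91 for 1,25(OH)2D3, 25(OH)D3 and vehicle, and so gives no check of the knockout between groups.

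The arrays had 49.9%, 49.7% and 51.0% of non-control spots well above background for 1,25(OH)2D3, 25(OH)D3 and vehicle, and no saturated spot. The median coefficient of variation of replicated probes was 9.68%, 3.75% and 7.37%, and the file headers place the first outside their accepted range. They place the variation of spike-in probes outside it on the 1,25(OH)2D3 and vehicle arrays. Markers of the labelled cell type were mostly missing. Of 10 distal tubule genes 3 were detected on at least 1 array (Wnk1, Scnn1a and, near background, Pvalb), while Slc12a3, the sodium chloride cotransporter that defines this segment, was not, and 0 of 6 epithelial markers were. Of 8 neuronal markers 6 were detected, of 6 macrophage markers 5 and of 7 fibroblast markers 2. Some of these detections rest on few of a gene's probes. Of the macrophage genes, Csf1r had 2 of 2 probes detected on any array and Aif1 its only probe. Cd68 had 2 of 3 probes, Itgam 1 of 2 and Ptprc 1 of 7. Of the neuronal genes, Snap25 and Syt1 had 1 of 3 probes each, Dlg4 2 of 4 and Map2 4 of 7. Syp and Tubb3 have 1 probe each. Summed levels of the neuronal list, relative to each array's 75th percentile, were 6.12 with 1,25(OH)2D3 and 7.13 with 25(OH)D3, against 9.59 with vehicle, those of the macrophage list 8.01, 9.35 and 9.05, and those of the fibroblast list 26.4, 30.2 and 25.6. The neuronal markers are given because Srcin1 is best known in brain, and without Map2 their sums were 3.85, 3.48 and 3.89 in the same order. Among the neuronal genes Tubb3 was 0.85 and Syp 0.14 higher with 1,25(OH)2D3 than with vehicle. Map2 was -1.33, Dlg4 -0.72 (other probe -0.20) and Snap25 -0.57, and the median of the 5 measured was -0.57. Syt1, near background, had a bound of 2.02-fold lower, and Rbfox3 and Nefl were not well above background. Of the fibroblast list only Vim and Col1a1 were detected, and Vim made up most of its sum. Vim differed from vehicle by 0.07 with 1,25(OH)2D3 and 0.26 with 25(OH)D3, and Col1a1 by -1.28 and -0.78. The part of other cell types in the Srcin1 result was not tested.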

How the data were processed

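Total RNA from 1 culture per group was amplified, labelled with Cy3 and hybridised to 1-colour Agilent mouse arrays, per the labels' protocols. The authors deposited scanner files that hold each spot's intensity. Background subtraction and detrending within each array were done with Agilent Feature Extraction 10.7.1.1, per the file headers, which place probes on mm9. Version 9.5.1.1 of it stands in the submitters' processing notes. The headers place all 3 arrays on 1 slide and in 1 scan. A deposited table of 1 linear intensity per probe has a log2 median of 3.71 in each column. It served as an alternative, and the tool behind it is not named in the labels, headers or notes.

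The members and gene lists were chosen with earlier results of these data known. Signals were divided by each array's 75th percentile over all non-control spots (380 for 1,25(OH)2D3, 401 for 25(OH)D3, 371 for vehicle) and log2-transformed. Spots with a feature outlier mark on any array were left out, which removed no probe. Spots with only a local background mark were kept, because every probe of the 9 genes was to be shown, and 2 of the 18 carry that mark. The brightest probe stood for a gene, and a gene was measured where both arrays had it well above background. A bound sets the brighter signal against the higher of the dim probe's own and the lowest signal well above background on that array. It leaves out the scanner error. Errors combine the relative scanner errors of the 2 spots. Genes named are the 9 genes, list members at least 2-fold apart or at either end of their list, the 5 nearest in pattern, neighbours within 500 kb at least 2-fold apart, and 3 check genes (Cyp24a1, Cyp27b1 and Vdr). One gene that this rule names is not reported here. Arhgap23 and Pvalb, Wnk1, Scnn1a and the other single markers were named after their values were seen. The software was Python 3.11.15 and, for the normalisations, limma 3.58.1 in R 4.3.3. The calculation was checked on simulated data. With 1 array a group, the number of arrays limits the precision.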

Additional observations from a re-analysis of the deposited data

How the results depend on the processing

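No paired analysis was possible because each group had 1 array, and no replicate could be left out. Other settings of centring, normalisation, background, detection, filters and threshold were run, and 2 were chosen after seeing the data: averaging all probes of a gene whether or not above background, and leaving out spots with a local background mark. The Srcin1 difference kept its direction in all of them. For 1,25(OH)2D3 minus vehicle it was 3.27 with normexp and quantile normalisation, 3.78 with an offset of 32 and 3.39 as the mean over all probes. For 25(OH)D3 minus vehicle the values were 2.35, 2.87 and 3.35. For 1,25(OH)2D3 minus 25(OH)D3 the mean over all probes gave 0.05. The weak junction probe had 10.3 ± 3.07 with 1,25(OH)2D3 and 20.1 ± 4.11 with 25(OH)D3. That mean also gave 0.27 and 0.24 for Src with 1,25(OH)2D3 and with 25(OH)D3 against vehicle (-0.11 and -0.48 by the brightest probe), 0.18 for Pag1 between the compounds (-0.45), 0.02 for Csk with 1,25(OH)2D3 (-0.04), -0.06 for Bcar1 with 25(OH)D3 (0.08) and -0.03 for Ptk2 between the compounds (0.05). The other settings gave 5.30 to 5.42, 4.26 to 4.35 and 0.91 to 1.17. Centring on the median put the all-gene median at 0.12, -0.07 and 0.19, in place of -0.01, -0.01 and 0.00. This centring made Srcin1 the 1 member 2-fold higher between the compounds. It also turned the split over all genes to 230 higher and 193 lower for 1,25(OH)2D3 minus vehicle (167 and 284 here) and 134 and 137 between the compounds (77 and 244), and 1,25(OH)2D3 minus vehicle to 0.09 for Csk and 0.01 for Src, and the difference between the compounds to 0.15 for Yes1 and 0.09 for Lyn, all of them below 0 with the 75th percentile. A 1.5-fold threshold likewise gave 1 higher between the compounds (Srcin1), 1 lower between 1,25(OH)2D3 and vehicle (Bcar1) and 1 lower between the compounds (Bcar1). Without spots with a local background mark, Bcar1 was read from its junction probe and gave 0.01, -0.20 and 0.21. Without the outermost 6 rows and columns Bcar1 had no value and Lyn gave -0.83 and -0.71 in the comparisons with 1,25(OH)2D3 on top. Counts over all genes moved more: 71 to 577 higher and 51 to 1075 lower for 1,25(OH)2D3 minus vehicle, 42 to 486 and 3 to 230 for 25(OH)D3 minus vehicle (147 and 24), and 23 to 366 and 53 to 943 between the compounds. The vehicle signal of Srcin1, close to background, limits how well the size of its fold changes is known.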
